A study of Mus musculus with 21 samples.

Results

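Thymic conventional dendritic cells of type 1 (cDC1) were compared before and after maturation, as 3 libraries of mature CCR7+ Esam+ cells against 4 libraries of immature CCR7- Esam- cells, 7 of the 21 libraries of the series. The groups followed the sample labels alone, and all genes were examined. The cells came from the thymus of B6 (C57BL/6) mice aged 6 to 8 weeks, with no treatment in any group, and each library was made from cells pooled over several mice. Both populations were enriched for CD11c and sorted as CD24+ CD11b- CD11c+ cells that lacked F4/80, Ly6g, Ly6c, DX5 and B220, and differed in the CCR7 and Esam gates. Thymic cDC2, sorted by the same 2 markers into 3 mature and 3 immature libraries, served only to test where the maturation of cDC1 differed.

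cDC1 take up dead cells, load their antigens onto class I and class II molecules and show them to developing T cells. In the thymus this presentation deletes self-reactive thymocytes and directs others into the regulatory T-cell lineage. Dendritic cells that mature without infection switch on CCR7, the receptor for the chemokines that lead into T-cell zones and the thymic medulla, and exchange uptake of antigen for its display.

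The deposited value of a gene is its read count divided by a size factor of the library, here called the normalized read count. The whole reads behind these values numbered 15612117 to 28376238 in the immature and 14782647 to 39353600 in the mature libraries. Mature replicate 3 was the deepest, with 16909 genes having a read against 14317 and 14373 in the other mature libraries. Transcripts of the mitochondrial genome took 1.23 to 1.75% of the normalized counts in immature and 1.06 to 1.42% in mature libraries. The same size factors left a larger sum in every mature library, 27250335 to 31465055 against 21946807 to 24361309. Immature replicate 1 was sequenced on lane 5 and the other 6 libraries on lane 8. Immature replicates 3 and 4 carry the same leading number, index and lane in their labels, and mature replicate 1 the same leading number. Replicates 3 and 4 differed by more than the other immature pairs (chi-square per degree of freedom 100.5, against 24.6 to 93.6) and were kept apart, and with both averaged as 1 sample 3059 genes rose and 3678 fell. Nothing in the sources used here ties a library to its own set of mice beyond these labels, so that p-values measure only the spread between libraries, which may be technical.

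A gene is said to have risen or fallen with maturation if it changed more than 2-fold in the limma fit and its p, adjusted by Benjamini-Hochberg, was below 0.1. Values are normalized read counts of single libraries, or means ± SD over the 4 immature and 3 mature libraries, in that order. Log2 fold changes are mature minus immature on the scale of the normalized count plus 1, which understates the change of genes with few reads, and a gene that rose or fell by a number did so by that log2 fold change. Of 14970 genes tested, 3183 rose and 3665 fell, which is 21.3% and 24.5% of them. The median over all genes tested was -0.04. More than 4-fold changes were found for 1740 genes that rose and 2058 that fell, and 2781 of the rises and 3158 of the falls had no overlap between the 4 immature and 3 mature libraries. With so many genes called, the gene groups below are read against those 2 shares and that median.

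The 2 sorting markers followed the gates and are given as a check of the labels. Ccr7 (chr11:99144196-99155077, minus strand, GRCm38) had 709.6, 556, 966 and 624 normalized counts in the immature libraries and 92666, 108484 and 129531 in the mature libraries. Esam, an adhesion molecule of cell junctions, had 19.4, 25.8, 29.6 and 19.2 against 1167, 1125 and 1323. The groups were far apart for both genes, in every library.

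**Figure D1:**
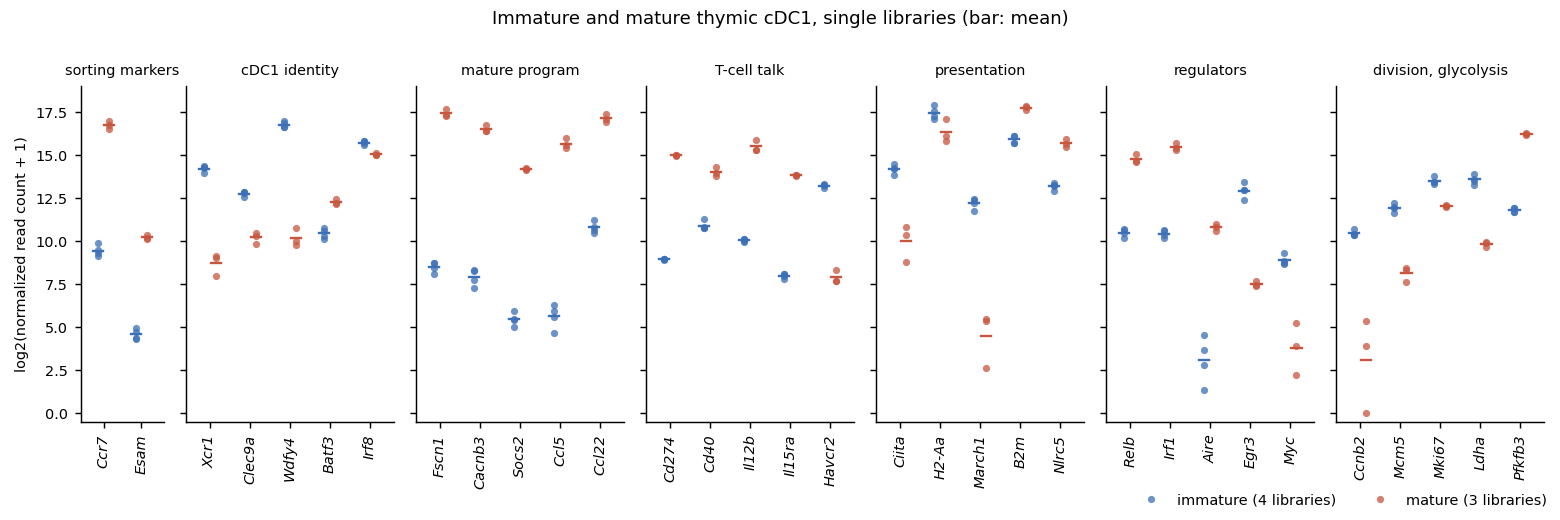
Normalized read counts of 32 genes, as log2 of the count plus 1, in each of the 4 immature (blue) and 3 mature (red) thymic cDC1 libraries, with bars at the group means. The immature and mature libraries do not overlap for any gene drawn, and they come closest for H2-Aa and then Irf8, which was not called.

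The genes that define cDC1 among dendritic cells were mostly lower after maturation. Of 28 tested identity genes, 19 fell and 4 rose, with a median log2 fold change of -3.24. In RNA of a whole sorted fraction, fewer cells with a transcript and less of it per cell cannot be told apart. Xcr1, the chemokine receptor by which cDC1 are recognised (chr9:123852315-123862029), had 20274, 20744, 16194 and 19180.1 counts in immature and 511, 253 and 557 in mature libraries. It was lower in every mature library, by 5.51 on the log2 scale (SE 0.40, adjusted p = 3.16e-10). Clec9a, the receptor for actin exposed on dead cells, fell by 2.55, from 6967 ± 559 to 1208 ± 258. Wdfy4, a scaffold protein required for cross-presentation by cDC1, had 127965, 117675, 102224 and 101362 counts in immature libraries and 1018, 863 and 1763 in mature ones, a fall of 6.59 (SE 0.23, adjusted p = 3.94e-15). The endosomal receptor of double-stranded RNA, Tlr3, fell from 4393 ± 933 to 12.7 ± 6.78 counts, and Itgae, the CD103 integrin chain, from 16233 ± 1306 to 229.8 ± 133. Naaa and Ppt1, 2 lysosomal hydrolases abundant in cDC1, fell by 7.88 and 6.04. Of the identity genes that rose, Laptm4b, a lysosomal membrane protein, rose most, from 735 ± 86.9 to 9658 ± 2591.

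The transcription factors that specify cDC1 did not follow this fall. Batf3 rose by 1.82 (SE 0.27), from 1427 ± 292 to 4998 ± 611, and Id2 rose by 1.64, from 12957 ± 838 to 40419 ± 5125. Irf8 had 54208 ± 3833 counts in immature and 34273 ± 1504 in mature libraries, a log2 difference of -0.66 that stayed within 2-fold. Genes typical of cDC2 were not gained as a group: 10 of 19 fell and 4 rose, with a median of -2.58, and 0.48 over the members with at least 10 counts in every library. Sirpa, the surface marker of cDC2, had 234 ± 42.2 counts in immature and 392 ± 98.4 in mature cells, and Itgam, encoding CD11b, had at most 36.4. Of the 4 cDC2 genes that rose, Irf4 went from 189 ± 80.8 to 2358 ± 675 and S100a4 from 2.47 ± 2.65 to 122 ± 70.7.

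In place of the identity genes, the program shared by dendritic cells that mature in the steady state was high in every mature library. Of 40 genes on that list, 39 rose, with a median of 5.60. The exception was Cst3, the cysteine protease inhibitor cystatin C, at 155644 ± 45709 and 173647 ± 55405 counts. The list collects genes known from CCR7+ cells and the present cells were sorted on CCR7, so that the count describes the mature state and is no independent evidence of it. Fscn1, which bundles actin in dendrites, had 431, 339.8, 421 and 273 counts in immature and 164339, 156981 and 209834 in mature libraries (log2 fold change 8.93, SE 0.37, adjusted p = 7.18e-14). Cacnb3, a calcium channel subunit, had 325, 217, 301 and 152 against 85329, 87332 and 109519.6. Socs2, a feedback inhibitor of cytokine signalling, had 60.8, 30.8, 43.7 and 41.4 against 18799, 18200.2 and 19622. In all 3 genes the lowest mature library lay far above the highest immature one.

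Among all genes, the largest rises by the fixed rule were those of genes hardly read before maturation, several of them known from neurons or matrix. Oprd1, the delta opioid receptor (chr4:132110726-132144486), had 13.5, 0, 4.68 and 2.02 counts in immature and 9484, 9518 and 9798 in mature libraries. Dscaml1, a homophilic adhesion molecule of neurons, had 2.23 ± 1.53 and 5234 ± 1058. Insm1, a zinc finger factor of neuroendocrine cells, had 2.81 ± 2.09 and 3522 ± 92.3. Thbs4, a thrombospondin of the matrix, had 1.20 ± 1.51 and 2233 ± 276. Il23r, the receptor of interleukin-23, had 0.422 ± 0.845 and 899.6 ± 99.3. Gal3st2, a sulfotransferase of glycans, had no read in any immature library and 1600.3 ± 249.8 counts in the mature ones, at least 502-fold higher when set against a floor of 3 reads per library. The remaining genes named by that rule were Ccl5, Gm11435, Spata31d1b, Cdh2, Dpysl5, Synpo2, Scube3, Tmem150c and D3Bwg0562e, with log2 fold changes of 9.53 to 10.36, sizes that depend on the added 1 where the immature count is near 0. Over the whole table, 28 genes had at most 3 reads in every immature and at least 100 in every mature library, and 10 genes showed the reverse.

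The largest falls were those of Serpinf1, a secreted inhibitor of vessel growth, from 2400.0 ± 649 to 5.60 ± 9.69 counts, and Rgs18, a brake on G-protein signalling, from 892 ± 232 to 0.614 ± 1.06. Fcrla, an intracellular Fc-receptor-like protein, went from 731 ± 70.4 to 0.267 ± 0.462, and P2rx7, the ATP-gated channel that starts inflammasome activation, from 989.8 ± 144 to 7.46 ± 12.9. Gna15, a G-protein alpha chain of blood cells, had 2553 ± 491 and 11.7 ± 14.1. None of these genes had any overlap between the groups, and for Serpinf1, P2rx7 and Gna15 the counts left in mature cells lay mostly in replicate 3. The other falls named by the rule were those of Atp8b4, Cxcr3, F2rl2, Clec4b2, Tlr3, Ppef2, Naaa, Serpinb8, Asb2 and Ccdc69, between -7.81 and -9.02 on the log2 scale.

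**Figure D2:**
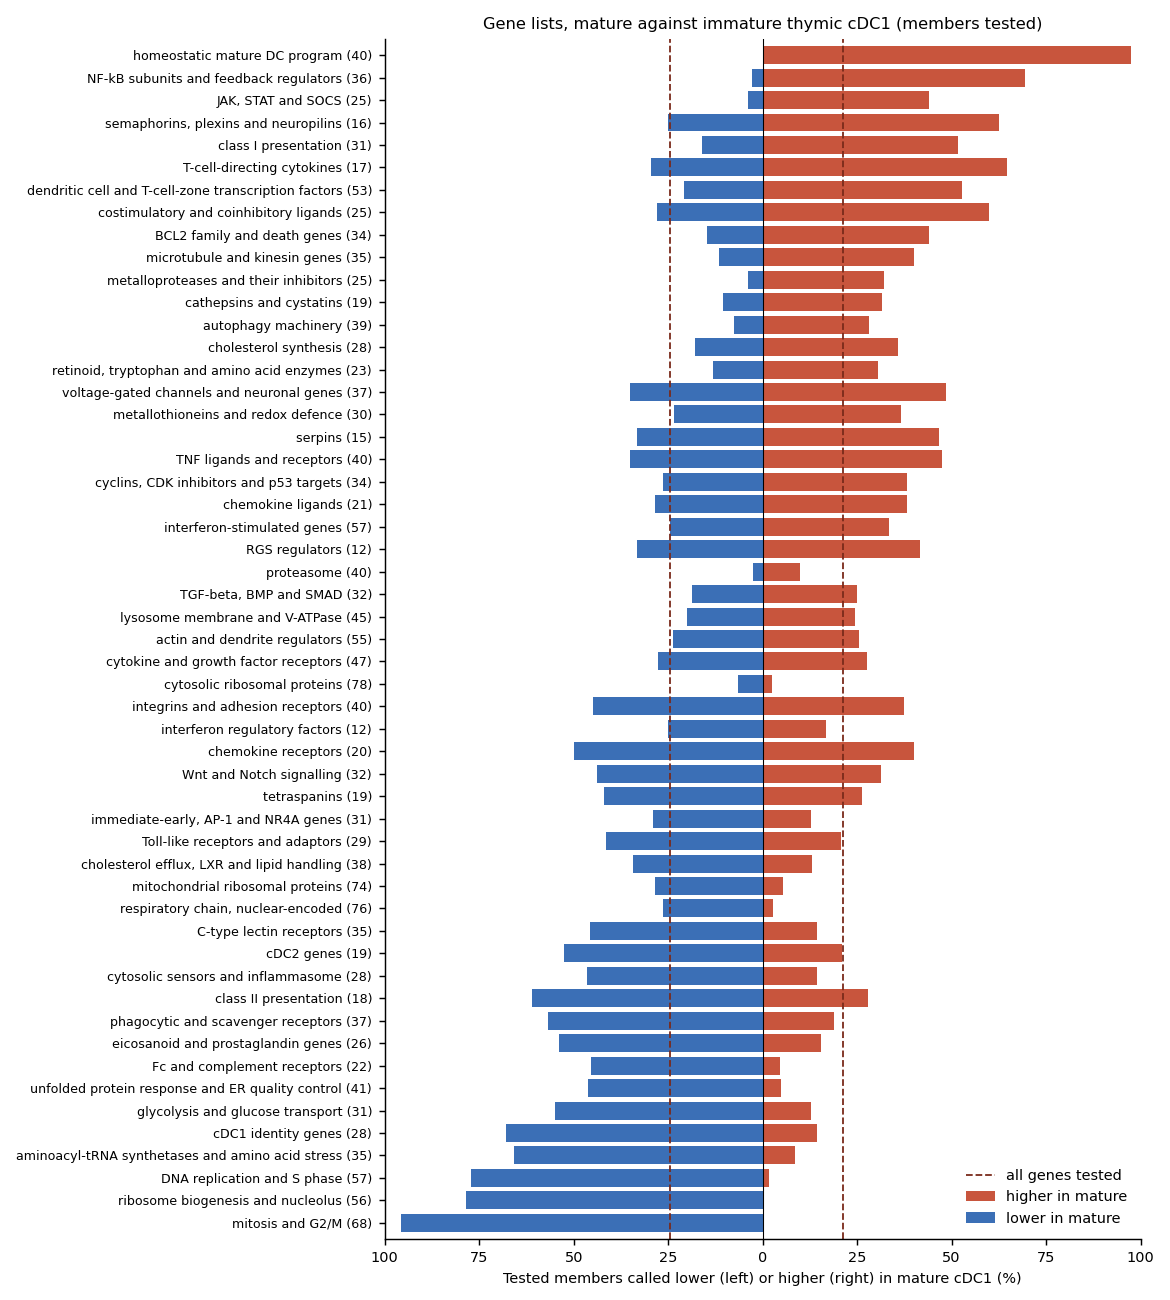
Share of the tested members of each gene list, in percent, that were called lower (blue, left) or higher (red, right) in mature than in immature thymic cDC1, with the number tested in parentheses and dashed lines at the shares over all genes, 24.5% lower and 21.3% higher. The homeostatic mature program stands at the top with 39 of 40 members higher, and mitosis at the bottom with 65 of 68 members lower.

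Chemokine genes changed in both directions. Of 21 ligands tested, 8 rose and 6 fell, with a median of 0.16. Ccl5 had 24.5, 78.3, 46.8 and 60.6 counts in immature and 43012, 65849.8 and 48409 in mature libraries, a log2 fold change of 10.03 (SE 0.31, adjusted p = 9.78e-16). Ccl22, a ligand of CCR4 that draws regulatory and effector T cells, had 1825, 1628, 2372 and 1412 against 142734, 123168 and 171998, and Ccl17, the other CCR4 ligand, rose from 218 ± 66.9 to 2934 ± 510.1. Cxcl16, which binds CXCR6, rose by 1.68, and the membrane-bound Cx3cl1 by 5.39. The inflammatory ligands Ccl3 and Ccl4 fell from 931 ± 173 to 38.1 ± 35.5 and from 2484 ± 376 to 101 ± 71.4. Cxcl9, an interferon-gamma-inducible ligand of CXCR3, fell from 6456 ± 606 to 461 ± 193.

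Chemokine receptors were exchanged as well, with 8 of 20 chemokine and sphingosine phosphate receptors rising and 10 falling. The rises include Ccr7, whose rise was set by the sorting gate and is no result. Cxcr3 had 591, 631, 752 and 436 counts in immature libraries and was at 0.267 ± 0.462 in mature ones. Ccr2, which recruits cells from blood to inflamed tissue, fell from 1597 ± 468 to 12.97 ± 11.4 and Ccr9, a receptor for thymic CCL25, from 933 ± 156 to 220.3 ± 61.7. Gpr183, the oxysterol receptor that positions cells in lymphoid tissue, fell by 1.62, or by 0.99 without mature replicate 2. Beside Ccr7, several receptors rose to low counts: Cxcr5, the receptor of B-cell follicles, went from 0.390 ± 0.780 to 102 ± 94.7 counts, and S1pr1, the receptor for exit from lymphoid organs, from 6.23 ± 11.4 to 122 ± 42.7. Ccrl2, which binds chemerin, rose from 437 ± 56.5 to 3217 ± 529.

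Regulators of cell shape changed in both directions. Of 55 actin genes, 14 rose and 13 fell, shares of the same order as among all genes, with a median of 0.19. Besides Fscn1, the actin-membrane linkers Marcksl1 and Marcks rose by 3.71 and 2.59, and Swap70, a Rac-binding protein of migrating cells, rose by 3.33, from 3241 ± 295 to 32850.5 ± 6408. Coro1a, a coronin of leukocytes, fell from 25535 ± 5185 to 6008 ± 2018, Was, the Wiskott-Aldrich protein, from 3123 ± 158 to 591 ± 63.5, and the myosin Myo1f from 8312 ± 871 to 74.2 ± 41.2. Of 35 microtubule genes, 14 rose and 4 fell. Tubb2b, a tubulin typical of neurons, rose from 373 ± 118 to 11588 ± 706 and Tuba1a from 1405 ± 439 to 15401 ± 2875, and Stmn1, which destabilizes microtubules, fell from 2739 ± 660.4 to 151 ± 35.6. The largest log2 rise among them was that of Kif5c, a kinesin of neurons, from 0.833 ± 1.67 to 108 ± 42.6 counts.

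Integrin chains of the beta 2 and beta 7 families fell, and several other adhesion receptors rose. Of 40 genes, 15 rose and 18 fell (median -0.55). The beta 2 chain Itgb2 had 10482, 10282, 10533 and 7899 counts in immature and 422, 612 and 462 in mature libraries, and its partners Itgal and Itgax fell by 6.23 and 3.35. The beta 7 chain Itgb7, partner of CD103, fell by 5.10, and the alpha chain Itga8 had the largest fall, from 1186 ± 174 to 9.90 ± 8.66. In contrast Itgb8, whose product activates latent TGF-beta, had 3.38, 0, 1.56 and 1.01 counts in immature and 1550.3, 979 and 1056 in mature libraries. Vcam1 rose from 695 ± 83.5 to 6739.5 ± 1137, Icam1, a ligand of the beta 2 integrins of T cells, from 5899 ± 564 to 24834 ± 3842, and N-cadherin, Cdh2, from 0.845 ± 1.69 to 1247 ± 86.2. Among guidance molecules, 10 of 16 semaphorins, plexins and neuropilins rose and 4 fell, with a median of 2.12. Sema7a, a membrane-anchored semaphorin, rose from 979.8 ± 116 to 19961 ± 3508 and its receptor Plxnc1 from 4269 ± 307 to 40381 ± 2842, whereas Sema4d fell from 2394 ± 326 to 129 ± 14.1 and Nrp1 from 189.5 ± 32.4 to 42.1 ± 34.8. Plxna4, a semaphorin receptor, rose most on the log2 scale, from 0.211 ± 0.422 to 166 ± 77.5. Of 25 metalloproteases and inhibitors, 8 rose and 1 fell, Mmp25, a membrane-anchored protease, rising from 733 ± 74.1 to 19089 ± 4761, Mmp23, with the largest rise, from 22.9 ± 8.64 to 1360.1 ± 142, and Mmp12, the macrophage elastase, being the one that fell (from 42.5 ± 33.1 to 6.93 ± 12.002).

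More genes of T-cell stimulation and restraint rose than fell. Of 25 such genes, 15 rose and 7 fell, with a median of 2.15. Cd274, encoding the inhibitory ligand PD-L1, had 491, 473, 495 and 499 counts in immature and 33524, 33199.6 and 31827 in mature libraries (log2 fold change 6.07, SE 0.15, adjusted p = 5.13e-17), and Pdcd1lg2, encoding PD-L2, had 22.6 ± 13.3 and 3002 ± 259. Cd40, which receives help from T cells, rose from 1938 ± 375 to 16816 ± 3218, and Cd80 from 1549 ± 48.6 to 6890.3 ± 234. Cd86, the other ligand of CD28, had 10766 ± 326 counts in immature and 6454 ± 1351 in mature libraries, a log2 difference of -0.76 within 2-fold. That is RNA alone: the paper reports CD80 and CD86 markers as highest on the mature thymic cDC1 and cDC2. Cd70 and Tnfsf4, the ligands of CD27 and OX40, went from 1.04 ± 2.08 to 347 ± 147 and from 2.35 ± 2.68 to 97.2 ± 62.7, and Slamf1, a self-binding receptor of lymphocytes and dendritic cells with the largest log2 rise of the list, from 3.03 ± 2.58 to 1538 ± 197. The largest fall on this list was that of Havcr2, encoding TIM-3, from 9616 ± 612 to 243 ± 62.2, followed by Tigit, and Btla fell by 2.36.

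In the TNF superfamily 19 of 40 genes rose and 14 fell. Tnfrsf4, encoding OX40, had 25.3, 16.7, 20.3 and 16.2 counts in immature and 4205, 4773 and 7094 in mature libraries. Fas, the death receptor, rose from 52.1 ± 21.6 to 2716 ± 123, and Tnfrsf11a, encoding RANK, from 429 ± 69.7 to 5833 ± 227. The BAFF gene Tnfsf13b fell from 289 ± 50.7 to 38.3 ± 52.7, and the BAFF-binding receptor gene Tnfrsf13b from 382 ± 43.6 to 11.9 ± 9.07. Of 17 cytokine genes, 11 rose and 5 fell. Il12b, the p40 chain of interleukin-12 and 23, had 1102, 1019, 971 and 1119.7 counts in immature and 40400.0, 40659 and 61276 in mature libraries, Il15 rose from 582 ± 106 to 5599 ± 543 and Il27 from 17.01 ± 8.69 to 736 ± 213. Csf1, the macrophage growth factor, had the largest log2 rise, from 22.3 ± 4.80 to 1531 ± 142. Il1b, Il18 and Il16 fell by 3.28, 3.71 and 4.66, and Tgfb1 by 2.58.

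Receptor chains that work with the common gamma chain were among the rises. Il2rg, the common chain, went from 218 ± 61.7 to 3290.1 ± 47.6 counts, Il21r from 58.0 ± 13.2 to 11503 ± 1703, Il4ra from 607 ± 69.5 to 11618 ± 2412 and Il15ra, which presents interleukin-15 on the cell surface, from 252 ± 23.7 to 14499.5 ± 418. Il7r and Il2ra had 24.5 ± 14.4 and 7.99 ± 7.67 counts before and 1187 ± 328 and 1065 ± 399 after maturation. In the wider list of 47 receptors, 13 rose and 13 fell. Csf1r, Il6ra, Kit and Ifngr1 fell by 5.51, 4.62, 2.91 and 3.05, and Tgfbr2 by 3.35. Flt3, the receptor on which cDC1 depend, had 17668 ± 913 counts before and 29329 ± 897 after, a log2 difference of 0.73 within 2-fold. T-lineage transcripts, which share some of these receptors, were also higher in the mature libraries, with sums of 13764 to 14432 against 849 to 1136, and their part in these values was not tested.

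Transcripts of class II and class I presentation genes diverged, and neither surface molecules nor presentation was measured here. Of 18 class II genes, 11 fell and 5 rose (median -1.13, with 8 falls when immature replicate 3 or mature replicate 2 was left out), while of 31 class I genes 16 rose and 5 fell (median 1.09). Ciita, the master regulator of class II transcription, had 23051, 19307, 14975 and 18566 counts in immature and 1336, 442 and 1801 in mature libraries, a fall of 4.20 (SE 0.32, adjusted p = 4.97e-10). The chain genes fell less: H2-Aa had 157209.9, 191975, 248842 and 142472 in immature and 71907, 58356 and 138649 in mature libraries, a fall of 1.12 (SE 0.31) that dropped below 2-fold without immature replicate 3 (-0.96) or mature replicate 2 (-0.86), and H2-Ab1 fell by 2.85. H2-DMa and H2-DMb1, which exchange peptides, fell from 12489.7 ± 3649 to 838 ± 491 and by 4.14, and the invariant chain gene Cd74 by 1.23. March1, whose product marks class II for degradation, had 5369, 4821, 3486 and 5525 counts before and 40.6, 5.199 and 44.0 after, a fall of 7.71. H2-Eb2, a minor class II gene, rose from 822 ± 72.6 to 10816 ± 3682.

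On the class I side, B2m had 52955, 71108, 69788 and 54127 counts in immature and 202144, 227080.0 and 237677 in mature libraries (log2 fold change 1.85, SE 0.21), and H2-K1 had 41321 ± 7076 and 153499 ± 35241. Reads of the classical and Q-region class I genes can be split between near-identical copies, so that the sizes for single H2 genes are uncertain. Nlrc5, the class I counterpart of Ciita, rose from 9348 ± 1205 to 53101 ± 8346. Tapbp, tapasin, rose by 1.86 and the proteasome activator subunits Psme1 and Psme2 by 1.09 and 2.26. The peptide transporter gene Tap1 had 12650.1 ± 1978 counts before and 21416 ± 3072 after, within 2-fold. Calr and Pdia3, chaperones of the loading complex that serve the whole endoplasmic reticulum, fell by 1.19 and 1.27. They were not the largest falls: 3 of the 5 falls on this list exceeded 3 on the log2 scale, against 1 of the 16 rises. The largest, of 6.59, was that of Wdfy4, described above. The nonclassical H2-M2 had 220.5, 132, 179 and 223 in immature and 25649, 22732 and 28791 in mature libraries.

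Among proteases of the endosome, 6 of 19 cathepsin and cystatin genes rose and 2 fell. Lgmn, the asparaginyl endopeptidase, rose from 679.9 ± 84.0 to 10266 ± 3124 and Ctsh from 4805 ± 544 to 16569 ± 1005, whereas Ctse fell from 665 ± 151 to 14.7 ± 12.8. Ctss, the cathepsin that trims the invariant chain, had 13406 ± 1448 counts before and 21027 ± 2519 after, and Prss16, the thymus-specific serine protease, 46.9 ± 17.99 and 41.5 ± 32.7. Of 15 serpins, 7 rose and 5 fell, with Serpinb9, the inhibitor of granzyme B, at 989, 859.5, 1047 and 917 in immature and 49921, 39707 and 50351 in mature libraries and Serpinb6b at 1782 ± 119 and 65958 ± 1876. Serpinb9b, a close relative of Serpinb9 with which it may share reads, rose most on the log2 scale, from 0.390 ± 0.780 to 532 ± 156.

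Genes for the uptake of antigen fell more often than they rose. Of 37 phagocytic and scavenger receptor genes, 21 fell and 7 rose (median -1.66), and of 35 C-type lectins 16 fell and 5 rose (median -0.998). Cd36, a scavenger receptor that binds dying cells, had 7109, 7122, 6547 and 7589 counts in immature and 259.9, 236 and 323 in mature libraries. Cd207, langerin, had 4764, 5368, 5850.0 and 5023 in immature and 55.3, 8.67 and 96.7 in mature libraries, and Fcgr2b, the inhibitory Fc receptor, had 2234 ± 210.3 and 24.6 ± 24.01. Against this trend, Ly75, the endocytic receptor DEC-205, rose from 4141 ± 598 to 26416 ± 3198, Axl from 315 ± 34.5 to 2168 ± 1348 and Mfge8, a bridge to dead cells, from 176 ± 63.5 to 5083 ± 959.7, and the lectin Mrc2, a collagen receptor, from 1.02 ± 0.778 to 286 ± 81.6. Of 22 Fc and complement receptor genes, 10 fell and 1 rose, complement receptor Cr2, from 0 to 7.48 ± 9.70 counts, a call lost without mature replicate 1 (adjusted p = 0.148). In the lysosome, 11 of 45 genes rose and 9 fell, shares of the same order as among all genes. The membrane protein Lamp1 had 1380.3, 1372, 1348 and 1234 counts before and 32801, 32664 and 38569 after. Cd63 had 58.7 ± 20.98 and 19539 ± 2183. Other members fell, by log2 fold changes down to -3.61. The summed count of the list was lower in every mature library, 262593 to 344813 against 360796 to 488969 in immature ones.

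More sensors of microbes fell than rose. Of 29 Toll-like receptor and adaptor genes, 12 fell and 6 rose (median -0.56), and of 28 cytosolic sensor and inflammasome genes 13 fell and 4 rose (median -0.80). Besides Tlr3, the receptors Tlr11 and Tlr12, which sense parasite and bacterial proteins, fell by 3.23 and 3.60, and the adaptor Myd88 by 1.57. Nlrp3, a sensor of the inflammasome, had 1925, 1694, 1662 and 1305 counts in immature and 99.5, 55.5 and 88.0 in mature libraries. Casp1 and Gsdmd, which act after these sensors, rose by 1.69 and 1.54. The largest rises of the 2 lists were those of Irak3, an inhibitor of Toll-like receptor signals (from 11.9 ± 5.41 to 109 ± 13.9), and Casp4, a sensor of lipopolysaccharide (from 319 ± 45.6 to 2322 ± 249.6), and Nlrp1a had the largest fall among cytosolic sensors, from 205 ± 51.6 to 10.8 ± 9.44.

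The NF-kB pathway, whose subunits drive dendritic cell maturation and whose inhibitors are among its own targets, was mostly higher. Of 36 genes, 25 rose and 1 fell, with a median of 2.01. Relb, the subunit of the alternative pathway, had 1403, 1587, 1662 and 1180.3 counts in immature and 25974, 25001 and 34165 in mature libraries (log2 fold change 4.28, SE 0.25, adjusted p = 1.20e-11). Its partner Nfkb2 rose by 2.41, Rel by 1.78 and Rela by 1.49, and Ikbke, a kinase related to those that free NF-kB, rose most, from 14.5 ± 4.96 to 637 ± 85.1, whereas Nfkb1 had 6956 ± 459 and 7319 ± 591. Of the inhibitors, Nfkbia rose from 11114 ± 1325 to 71104 ± 7167 and Tnfaip3, encoding A20, from 15164 ± 1059 to 79845 ± 9488.

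The promoters of this list were searched for the kappa B motif on both strands, from 250 bases before to 50 after each RefSeq start (GRCm38.p6). It was found in 16 of 42 promoters, 38.1%, against 4.5% of all 32851 promoters in the table. The list holds known targets of the pathway, so that this share describes the list and is no evidence about maturation. The promoters of genes that rose held it in 8.0%, those of genes that fell in 4.5% and those of tested genes that did neither in 4.9%. The promoters of Tnip3 (an inhibitor, log2 fold change 4.10) and Nfkbia are shown as examples of members of this list that rose and hold it. That of Pdcd1lg2 is from the list of the homeostatic mature program, in which 7 of 40 promoters, 17.5%, held the motif. All are written 5′ to 3′ on the strand of the gene, with each match in capitals. They lie at chr6:65590148-65590447 (plus strand), chr12:55492598-55492897 (minus strand) and chr19:29410669-29410968 (plus strand).
Tnip3: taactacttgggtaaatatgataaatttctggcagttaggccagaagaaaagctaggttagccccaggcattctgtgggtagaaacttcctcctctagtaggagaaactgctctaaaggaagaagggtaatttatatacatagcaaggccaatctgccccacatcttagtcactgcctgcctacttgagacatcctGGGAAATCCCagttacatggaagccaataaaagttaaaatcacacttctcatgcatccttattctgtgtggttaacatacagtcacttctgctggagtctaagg
Nfkbia: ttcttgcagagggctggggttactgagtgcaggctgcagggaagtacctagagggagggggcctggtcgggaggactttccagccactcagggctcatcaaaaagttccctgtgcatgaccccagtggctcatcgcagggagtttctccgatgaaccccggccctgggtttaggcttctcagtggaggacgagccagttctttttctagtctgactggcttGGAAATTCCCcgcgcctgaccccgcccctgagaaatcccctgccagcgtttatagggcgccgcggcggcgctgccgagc
Pdcd1lg2: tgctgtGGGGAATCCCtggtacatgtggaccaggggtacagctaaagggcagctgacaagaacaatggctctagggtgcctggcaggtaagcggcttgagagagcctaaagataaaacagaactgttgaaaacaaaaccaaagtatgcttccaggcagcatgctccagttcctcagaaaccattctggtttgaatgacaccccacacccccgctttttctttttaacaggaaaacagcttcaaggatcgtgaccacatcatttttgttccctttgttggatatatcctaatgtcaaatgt
A match describes the letters of the window and shows no binding.

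Interferon-stimulated genes split without a common direction. Of 57 genes, 19 rose and 14 fell, and the median was close to 0. The guanylate-binding proteins led the rises: Gbp2 had 43.9, 58.3, 85.8 and 126 counts in immature and 10542, 11788 and 10735 in mature libraries, Gbp4 105 ± 26.1 and 14758 ± 2125 and Gbp5 3.04 ± 3.51 and 603 ± 145. Gbp genes are near copies of each other, so that reads may be split among them. Ifi205 fell from 20449.7 ± 2028 to 1145 ± 487 and Ifi203 by 2.41, members of a family with near copies as well. Irf1, which drives guanylate-binding proteins and class I genes, had 1164, 1578, 1537 and 1287 counts in immature and 40435, 44180.0 and 52848 in mature libraries (log2 fold change 5.04, SE 0.17), and Irf7 fell from 14590.2 ± 2724 to 7049.6 ± 5237, with overlap between the groups and a fall below 2-fold without mature replicate 2 (-0.92). The ISRE, the element bound by interferon factors, was found in 52.9% of the 51 promoters of this list and in 1.9% of all promoters. The genes were listed for their response to interferon, so that this share, too, describes the list. The promoter of Gbp2 (chr3:142620413-142620712, plus strand) is printed as that of a member with a large rise and many reads, the ISRE in capitals.
Gbp2: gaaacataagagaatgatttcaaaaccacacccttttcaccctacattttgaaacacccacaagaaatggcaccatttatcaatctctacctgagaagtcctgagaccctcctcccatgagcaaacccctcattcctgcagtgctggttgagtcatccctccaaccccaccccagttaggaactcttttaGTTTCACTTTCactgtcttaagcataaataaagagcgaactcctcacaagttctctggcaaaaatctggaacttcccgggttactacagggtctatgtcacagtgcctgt

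Of 25 genes for Janus kinases, STAT factors and their inhibitors, 11 rose and 1 fell. Inhibitors were among the rises, Socs2 and Socs1 with Pias3 and Pias1, and the fall was that of another, Socs5, from 556 ± 92.6 to 192 ± 68.4. Stat4 had 12.7, 14.99, 0 and 16.2 counts in immature and 4244, 4353 and 3791 in mature libraries, Stat5a rose by 2.14 and Stat3 by 1.92. Of the immediate-early, AP-1 and NR4A genes, 9 of 31 fell and 4 rose. Egr3 and Nr4a1, which respond to antigen and growth signals, fell from 8106 ± 2262 to 181 ± 21.4 and from 27589.8 ± 2317 to 2305 ± 1517, and Myc from 481 ± 101 to 18.4 ± 17.4. Fos fell by 1.83 and Jun had 30897 ± 5914 and 24958 ± 10413, and Klf6, a zinc finger factor, had the largest rise, from 31025 ± 3139.8 to 109718 ± 7629.8.

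Of 53 transcription factors of dendritic cells and T-cell zones, 28 rose and 11 fell. Aire, the autoimmune regulator known from medullary epithelium, had 21.96, 11.7, 1.56 and 6.06 counts in immature and 1550.3, 1776 and 2053 in mature libraries (log2 fold change 7.71, SE 0.63, adjusted p = 1.70e-09). Ikzf4, an Ikaros family factor, had 2.83 ± 1.38 and 1372 ± 54.8, and Prdm1, encoding BLIMP-1, 15.3 ± 10.3 and 573 ± 61.5. Mycl, which supports proliferation of cDC1, fell from 6957 ± 763 to 168 ± 89.0, Rxra, a retinoid receptor, from 3303 ± 306 to 129 ± 33.8 and Runx1 from 1063 ± 138 to 132 ± 31.9. In the Wnt and Notch list 10 of 32 genes rose and 14 fell. The Notch ligand Jag1 had 32.1, 17.5, 24.97 and 25.3 counts before and 11191, 9462 and 11587 after, while the receptors Notch4 and Notch2 fell by 6.51 and 1.64. In the TGF-beta list, 8 of 32 rose and 6 fell, with Smad3 rising from 67.3 ± 9.21 to 636 ± 123 and Tgfbi falling from 11675 ± 1246 to 223 ± 112. Bmp1, a protease of the matrix, had the largest rise of that list, from 13.9 ± 6.04 to 539 ± 168.

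Genes of cell division fell nearly throughout. Of 68 genes of mitosis, 65 fell, with a median of -4.07. Ccnb2, a mitotic cyclin, had 1359, 1300.1, 1663 and 1309.7 counts in immature and 0, 13.9 and 40.0 in mature libraries (log2 fold change -7.37, SE 0.71, adjusted p = 2.07e-08). Kif2c, a mitotic kinesin, went from 564 ± 127 to 6.71 ± 10.2, Birc5, survivin, from 1121 ± 260.4 to 38.7 ± 30.95 and Cdk1 from 1738 ± 191 to 636 ± 88.7. The proliferation marker Mki67 kept a higher level, at 14159.6, 11250.3, 10033 and 11111 before and 4037, 4305 and 4183 after, a fall of 1.47. Of 57 replication genes, 44 fell and 1 rose (median -2.31). The helicase subunit Mcm5 fell from 3961 ± 643 to 287 ± 81.2, the ribonucleotide reductase Rrm2 from 2285 ± 139 to 85.4 ± 45.8 and E2f8 from 1043 ± 144 to 9.45 ± 13.3. The exception was Gins3, of the replicative helicase complex, which rose from 144 ± 33.7 to 1482 ± 103.

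**Figure D3:**
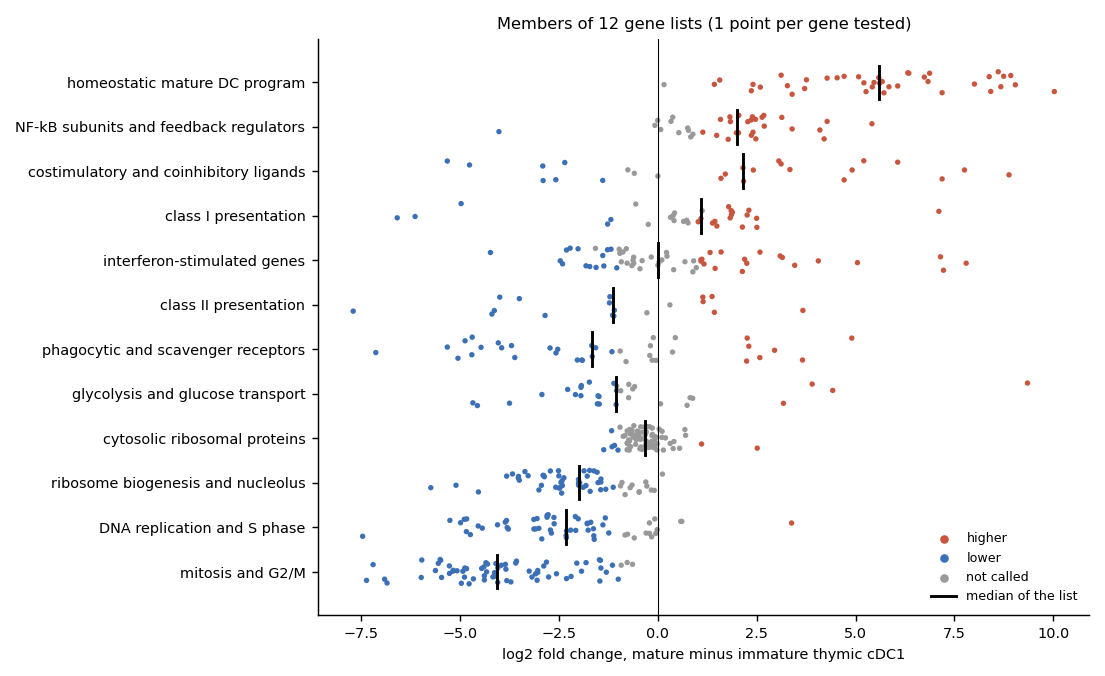
Log2 fold change between mature and immature thymic cDC1 for each tested gene of 12 lists (1 point per gene; red higher, blue lower, grey not called), with a black bar at the median of the list. The medians run from 5.60 for the homeostatic program to -4.07 for mitosis, and cytosolic ribosomal proteins lie close to 0.

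The E2F letters TTTCCCGC, TTTCGCGC, TTTGCCGC or TTTGGCGC were found, on either strand, in 18 of 55 replication promoters, 32.7%, and in 8.5% of the mitosis promoters. Among all promoters the share was 2.3%, and among genes that fell 4.4%, against 4.1% of genes that neither rose nor fell. The promoters of Orc1 (origin recognition, fall of 5.26) and Pola1 (the replicative primase complex, fall of 4.84) are shown with the match in capitals, as the replication genes with the largest falls that hold it. They lie at chr4:108579204-108579503 (plus strand) and chrX:93632106-93632405 (minus strand).
Orc1: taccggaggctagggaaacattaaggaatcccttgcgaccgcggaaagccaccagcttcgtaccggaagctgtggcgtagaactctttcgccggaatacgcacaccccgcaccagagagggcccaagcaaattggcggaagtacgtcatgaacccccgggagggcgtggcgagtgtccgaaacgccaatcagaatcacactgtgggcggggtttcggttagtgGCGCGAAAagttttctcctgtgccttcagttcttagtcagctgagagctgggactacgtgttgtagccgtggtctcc
Pola1: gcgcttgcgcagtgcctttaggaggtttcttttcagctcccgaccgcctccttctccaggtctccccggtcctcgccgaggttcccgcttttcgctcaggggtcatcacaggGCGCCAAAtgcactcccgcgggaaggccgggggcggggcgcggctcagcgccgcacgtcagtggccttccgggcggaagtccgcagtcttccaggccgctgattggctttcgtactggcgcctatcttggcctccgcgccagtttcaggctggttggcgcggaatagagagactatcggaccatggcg

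Several inhibitors of the cell cycle rose. Of 34 cyclins, inhibitors and p53 targets, 13 rose and 9 fell. Cdkn2b, the p15 inhibitor, had 1.69, 0, 9.36 and 1.01 counts in immature and 709.7, 761 and 923 in mature libraries, and Cdkn2a, of the same locus, had 0.390 ± 0.780 and 79.9 ± 16.5. Cdkn1a, encoding p21, rose from 2266 ± 569.2 to 14856 ± 1583, and Cdk4 fell from 2671 ± 537 to 549 ± 59.4. In the BCL2 family and death list, 15 of 34 genes rose and 5 fell, with members of both roles among the rises. The survival genes Bcl2l1 and Mcl1 rose by 2.996 and 1.08 and Cflar, the inhibitor of caspase-8, by 3.54. The killer Bcl2l11, encoding BIM, rose by 1.82, whereas Bcl2 fell from 216 ± 43.2 to 62.3 ± 4.31 and Casp2, an initiator caspase, from 1473 ± 154 to 187 ± 137.

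Several parts of protein production were lower after maturation. Of 56 genes of the nucleolus and ribosome assembly, 44 fell (median -2.01). Fbl, fibrillarin, had 5469.7, 5007, 6443 and 6405 counts in immature and 581, 819.7 and 781 in mature libraries, and Polr1a, the large subunit of RNA polymerase I, 2797 ± 339 and 121 ± 32.3. Rrp12, of ribosome export, had the largest fall, from 849 ± 61.5 to 20.9 ± 16.8. Of 35 tRNA synthetase and amino acid genes, 23 fell and 3 rose (median -1.51), led by Phgdh, the first enzyme of serine synthesis, from 903 ± 304 to 18.02 ± 13.2, and with Slc7a11, the cystine carrier, rising most, from 15.5 ± 6.09 to 271 ± 44.5. Of 41 genes of folding and quality control in the endoplasmic reticulum, 19 fell and 2 rose (median -0.82). Hspa5, the chaperone BiP, fell by 1.95, Hyou1 by 3.32 and Xbp1 by 1.61. Derl3, of protein export for degradation, fell most, from 210.3 ± 25.5 to 5.81 ± 8.52, and Ppp1r15a, which restores translation after stress, rose by 1.85.

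Ribosomal proteins themselves hardly passed the 2-fold limit, with 5 of 78 falling and 2 rising (median -0.32). Their summed count was 1109253 to 1974148 in immature and 969409 to 1238088 in mature libraries, the ranges overlapping. Rps27l, a p53-inducible relative of a ribosomal protein, rose from 2176 ± 552 to 12193 ± 1254, and Rpl4 had the largest fall, 1.37. The proteasome changed little, 4 of 40 genes rising, of which Psme1, Psme2 and Psmb10 are inducible by interferon (Psme1 and Psmb10 close to the 2-fold limit), and 1 falling, the activator subunit Psme3 by 1.08. Of 39 autophagy genes, 11 rose and 3 fell, with Sqstm1, the receptor p62, going from 7151 ± 1336 to 34101 ± 6671, Optn, another receptor, rising most, from 55.0 ± 21.2 to 551 ± 141, and Atg9b falling most, from 401 ± 42.8 to 6.03 ± 7.48. Nuclear-encoded subunits of the respiratory chain had 20 falls and 2 rises of 76, near the share of all genes for falls and below it for rises, from Ndufa5 of complex I, which fell by 2.03, to Cox5a of complex IV, which rose by 1.33.

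More genes of glycolysis and glucose transport fell than rose. Of 31 genes, 17 fell and 4 rose (median -1.06). Ldha had 11748, 12427, 15609 and 10007 counts in immature and 795, 951 and 999 in mature libraries, and Hk2, the inducible hexokinase, 4179 ± 323 and 179 ± 45.4, and Aldoc, an aldolase, had the largest fall, from 168 ± 48.0 to 6.34 ± 5.02. Pfkfb3, which activates phosphofructokinase, rose from 3578 ± 317 to 76539 ± 3432. Eno2, the neuronal enolase, had 9.29, 4.16, 12.5 and 11.1 in immature and 5834, 5609.8 and 7611 in mature libraries, whereas the common Eno1 fell from 5329 ± 1592 to 1856 ± 249.5. In lipid metabolism, 10 of 28 cholesterol synthesis genes rose and 5 fell. Idi1, an isomerase of the pathway, rose by 4.09, whereas Dhcr7, which acts at its end, fell by 1.68 and Stard5, a sterol carrier, by 2.44. Of 38 lipid handling genes, 13 fell and 5 rose. Fasn, the fatty acid synthase, fell from 5651 ± 990.0 to 416 ± 90.8, and Abcg1, which exports cholesterol, rose from 2469 ± 179 to 16913 ± 3155. The largest changes of this list were the rise of Fabp5, a fatty acid carrier, from 271 ± 123 to 5274 ± 2058, and the fall of Dgat2, of triglyceride synthesis, from 1178 ± 139 to 57.0 ± 43.2.

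Of 23 enzymes of retinoid, tryptophan and amino acid metabolism, 7 rose and 3 fell, 30.4% and 13.04% against 21.3% and 24.5% of all genes, with a median of 0.02. Il4i1, an amino acid oxidase that restrains T cells, had 388, 226, 334 and 208 counts in immature and 29625, 22671 and 39965 in mature libraries, and Arg2, an arginase, 2.24 ± 2.81 and 887 ± 239. Aldh1a2, which makes retinoic acid, had 0.675 ± 0.827 and 102 ± 88.9, and Ido1, which degrades tryptophan, 20.8 ± 3.02 and 150.2 ± 54.9. Kmo, a later enzyme of tryptophan degradation, fell from 3824 ± 153 to 36.2 ± 41.9. Of 26 eicosanoid genes, 14 fell and 4 rose. Ptgs2, the inducible cyclooxygenase, had 128, 208, 54.6 and 233 counts before and 8581, 9882 and 8346 after, while Alox5ap, which serves leukotriene synthesis, fell from 8254 ± 1826 to 102 ± 30.4 and Cysltr1, a leukotriene receptor, from 329 ± 85.0 to 1.33 ± 2.31. Of 30 metallothionein and redox genes, 11 rose and 7 fell, Gclc, which limits glutathione synthesis, rising from 1700.2 ± 182 to 41106 ± 9363 and Tfrc, the transferrin receptor, falling from 1731 ± 351 to 31.3 ± 4.70. The metallothionein Mt2 had the largest log2 rise, from 10.2 ± 1.33 to 677 ± 35.5.

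Channels and other genes known from neurons changed in both directions. Of 37 such genes, 18 rose and 13 fell (median 0.66, and -1.07 over the members with at least 10 counts in every library). Besides Oprd1 and Cacnb3, the calcium channel chains Cacna1b and Cacna1d went from 8.52 ± 4.60 to 556 ± 102 and from 7.06 ± 4.84 to 236 ± 73.5, and Kcna2, a potassium channel, from 6.62 ± 5.17 to 511 ± 77.0. Cacna1e fell from 1222 ± 524 to 18.5 ± 14.7 and Kcnn4, the calcium-activated potassium channel of lymphocytes, from 836 ± 201 to 58.3 ± 4.48.

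Among families collected by symbol alone, 46 of 208 solute carriers rose and 60 fell, 22.1% and 28.8%, near the shares of all genes. They included Slc4a8, a bicarbonate exchanger, at 66.7, 88.3, 48.4 and 76.8 in immature and 36289, 33910.1 and 37404 in mature libraries, and Slc9a9, a proton exchanger of endosomes, which fell from 1899 ± 96.7 to 37.2 ± 33.4. Of 312 genes named Zfp, 84 rose and 46 fell, with a median of 0.42, the largest changes being those of Zfp37, from 0.390 ± 0.780 to 83.5 ± 13.2, and Zfp57, from 397 ± 50.9 to 12.4 ± 18.1. Of 58 Rab GTPases, which direct vesicles, 15 rose and 7 fell, with Rab26 going from 3.64 ± 3.81 to 662 ± 124 and Rab19 from 377 ± 57.2 to 56.5 ± 70.4. Among annexins, Anxa3 rose from 88.1 ± 23.8 to 35183 ± 756 counts and Anxa6 fell from 18664 ± 2990.0 to 536 ± 114. Of 33 histone genes, 16 fell and 1 rose, in libraries of polyadenylated RNA, which most replication-dependent histone mRNA is not. The rise was that of Hist3h2a and the largest fall that of Hist1h3c, from 16.5 ± 9.29 to 0.

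**Figure D4:**
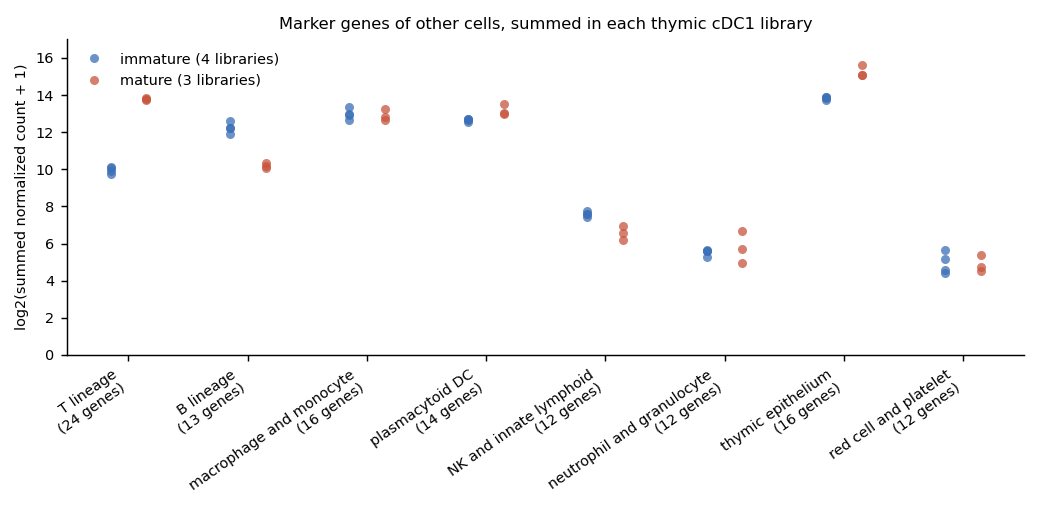
Summed normalized counts of marker genes of other cell types, as log2 of the sum plus 1, in each immature (blue, 4 libraries) and mature (red, 3 libraries) thymic cDC1 library. The T-lineage, thymic epithelium and plasmacytoid sums are higher in every mature library and the B-lineage sum lower, and the red cell and platelet sums overlap. Without Ighm, not drawn, the B-lineage sum is higher in every mature library (219 to 267 in immature, 273 to 355 in mature).

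Markers of other thymic cells were examined because the sorted fractions could hold them, and their part in the results was not tested. Of 22 T-lineage genes tested, 21 were higher in mature libraries and 1 lower. Their summed count was 849 to 1136 in the immature and 13764 to 14432 in the mature libraries, and 759.9 to 966 and 3513 to 4828 without Tcf7. Tcf7, an effector of Wnt signalling known from T cells, had 171, 138, 88.9 and 161 counts in immature and 9285, 10065 and 10919 in mature libraries. Cd3e, a chain of the T-cell receptor complex, had 5.91, 4.997, 7.80 and 11.1 in immature and 86.6, 24.3 and 45.6 in mature libraries, Cd8b1 had 64.8 ± 11.2 and 859 ± 287, and Rag1 47.7 ± 22.1 and 251 ± 89.5. The one that was lower, Cd5, had 119.6 ± 25.7 and 59.1 ± 24.4, a log2 change of -1.07 (-0.71 without mature replicate 2, -0.96 without immature replicate 2 and -0.998 with the label number as a block, none of which passed the call). Ptcra, of immature thymocytes, had no read in 6 of the 7 libraries and at most 2.40 in the other. Il7r, Il2ra and Cxcr5, receptors that T cells also carry, moved with maturity as well.

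Called members of the other marker lists changed in both directions or fell, but some sums were higher in every mature library. The thymic epithelium sum was 13572 to 15116 in immature and 35106 to 50427 in mature libraries. Without its most abundant member it was 786 to 889 and 2221 to 3236. The plasmacytoid sum was 6006 to 6757 and 8000 to 11560, and without its most abundant member 2508 to 4126 and 4069 to 4792, with overlap. Of 14 genes of thymic epithelium, 5 rose and 1 fell. Aire and the Notch ligand Dll4 rose (Dll4 from 9.03 ± 5.64 to 238 ± 138), the keratin Krt5 had 22.1 ± 3.06 and 98.6 ± 56.7, Foxn1, which defines thymic epithelium, had at most 11.99 counts in any mature library, and Epcam fell from 581 ± 66.2 to 158 ± 62.9. Of 16 macrophage and monocyte genes, 9 fell and 2 rose, and the complement gene C1qa had 88.8 ± 21.2 and 53.3 ± 79.9, with overlap and no call by edgeR or DESeq2. Of 13 genes of plasmacytoid cells, 7 fell and 2 rose, with Siglech at 414 ± 64.9 and 7.995 ± 13.8 and Spib, with the largest rise, at 53.1 ± 28.8 and 1261 ± 345. Of the B-lineage genes, 3 rose and 2 fell. Ighm, of B cells, fell from 4651 ± 931 to 865 ± 109, while Cd79a and Pax5, the defining B-cell genes, had at most 6.40 and 6.24 counts in any library. Without Ighm the B-lineage sum was 219 to 267 in immature and 273 to 355 in mature libraries, so that its fall rested on that gene. Of 7 genes of natural killer cells and 4 of neutrophils tested, 3 and 1 fell, among them Tbx21 (from 12.2 ± 4.02 to 0) and Csf3r (from 15.8 ± 5.78 to 2.48 ± 2.85), and the summed count of red cell and platelet genes was 20.2 to 49.1 in immature and 22.1 to 40.0 in mature libraries.

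**Figure D5:**
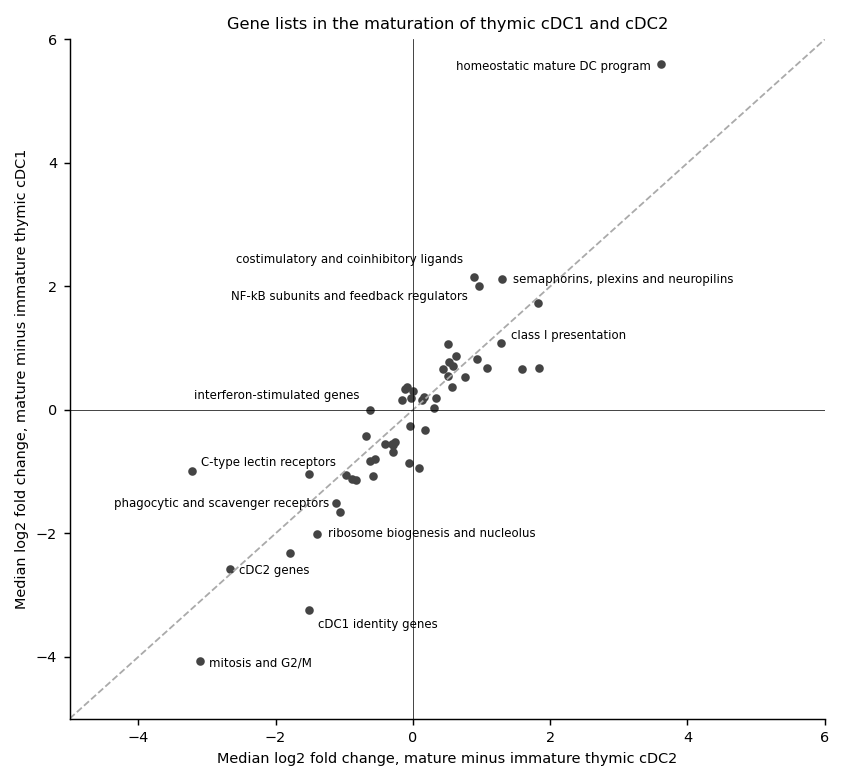
Median log2 fold change of each gene list with at least 10 tested members in the maturation of thymic cDC2 (horizontal axis) and thymic cDC1 (vertical axis), with the dashed line where both are equal. The homeostatic program lies above that line at 3.62 and 5.60, and the cDC1 identity genes below it at -1.51 and -3.24.

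The maturation of thymic cDC1 was set against that of thymic cDC2 by the difference of the 2 log2 fold changes in the same fit. The 2 effects share no library, but several cDC1 and cDC2 libraries carry the same leading number in their labels. Over all genes the difference was above 1 for 786 genes (5.25%) and below -1 for 1249 (8.34%) at an adjusted p below 0.1. With the lane 8 libraries alone these counts were 606 and 612. Of the genes that rose in cDC1, 2155 (67.7%) also rose in cDC2, which is 77.5% of the 2781 rises there, and 24 fell. Of those that fell in cDC1, 2083 (56.8%) fell in cDC2 as well, 81.8% of the 2548 falls there, and 39 rose. A starting difference stands beside these numbers: immature cDC2 held 3419 counts of Ccr7 on average (SD 682, n = 3) and immature cDC1 714 (SD 179), with mature levels of 99928 and 110227.

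The homeostatic program rose further in cDC1, with a difference above 1 for 22 of its 40 genes and below -1 for 1. Its median was 5.60 in cDC1 and 3.62 in cDC2. The identity genes of cDC1 fell further in cDC1 for 17 of 28 genes, among them Xcr1 and Naaa, whose differences were -2.09 (SE 0.59, adjusted p = 0.0222) and -3.27. These genes were listed because they define cDC1, so that a larger fall in cDC1 is no independent result. Naaa had means of 46662 counts in immature cDC1 and 6658 in immature cDC2, and of 207 and 283 in the mature cells. For costimulatory and coinhibitory ligands the difference was above 1 for 10 and below -1 for 3 of 25, and for the NF-kB list for 9 and 1 of 36. Interferon-stimulated genes had 20 of 57 differences above 1. In cDC2, 10 of them rose and 27 fell. Genes of mitosis fell further in cDC1 for 16 of 68 and less far for 2, and those of ribosome assembly further for 11 of 56. C-type lectins had 13 differences above 1 and 3 below -1 of 35, and several of those above 1 had few reads in cDC1 at either stage.

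By the fixed rule, the largest differences below cDC2 included those of Padi1, Cyp8b1, Asb2, P2rx7, Cxcr3, 1700009J07Rik and Alpl, all of which fell in cDC1. Padi1, an enzyme that converts arginine residues to citrulline, had 389.8 ± 44.4 counts in immature and 3.82 ± 4.01 in mature cDC1, against means of 1.32 and 6.41 in cDC2. Alpl, alkaline phosphatase, had 415 ± 104 and 1.495 ± 1.94 against 1.68 and 0. Asb2, a ubiquitin ligase subunit, went from 1438 ± 230.4 to 9.79 ± 8.69 in cDC1 and from 283 to 180.0 in cDC2 (difference -6.91, SE 0.98, adjusted p = 8.12e-05). Padi1 and Alpl were near 0 in cDC2 at both stages. The largest differences above cDC2 were those of Gm16553, Cd209c, Cd209b, Zbtb32, Kcne3, Rilpl1, Osm and Il1rl1. All but Osm and Rilpl1 had at most 47.9 counts in every cDC1 library. Gm16553 overlaps Clec4g on the other strand, and reads of the 2 cannot be told apart without the strand setting of the counting. Osm, the cytokine oncostatin M, had 28.7, 36.6, 34.3 and 23.2 counts in immature and 522, 620.4 and 958 in mature cDC1, while its mean in cDC2 went from 3222 to 1410.4 (difference 5.65, SE 0.38, adjusted p = 1.17e-08).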

How the data were processed

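RNA of sorted dendritic cells was made into stranded TruSeq mRNA libraries and sequenced on an Illumina HiSeq instrument. The authors trimmed reads with Cutadapt, aligned them with STAR 2.6, counted them per gene with HTSeq-count and normalized them with DESeq2 1.24.0. The deposited values are this normalized signal, a read count per gene after division by the size factor of its library, with 1 file per library. The annotation release and the strand setting of the counting are not given in the sources used here, so genes that overlap an antisense partner are uncertain. The value of 1 read was found from the values themselves, and 100% of values were whole reads within 0.01.

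Groups followed the sample labels. Splenic cDC1 replicates 4 and 5 differed far less than other pairs (chi-square per degree of freedom 2.53) and were averaged as 1 sample, which left 20 samples. Genes that reached 10 in 3 or more samples were fitted with limma 3.58.1 in R 4.3.3, on log2(value + 1) with 1 mean for each of the 6 groups, so that all groups shared 1 estimate of the spread. Variances were moderated with an intensity trend and p-values adjusted by Benjamini-Hochberg over all 14970 genes tested. Genes were called at an adjusted p below 0.1 and a change above 2-fold. The difference from cDC2 was a contrast of both contrasts in the same fit. The fit was tested on simulated counts with 200 changed genes, none of them near 0 in the immature group. That setting has far fewer changes than were called here, so that it says little about these calls.

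As alternatives, edgeR 4.0.16 and DESeq2 1.42.0 were run on the recovered reads, edgeR calling 3311 genes higher and 3421 lower, and other scalings, pseudocounts, filters and sets of libraries were tried. Members of fixed gene lists and symbol families were counted, with no set test. The genes named are members of these lists or families, at least the largest called rise and fall of each list discussed, and the 15 largest rises and 15 largest falls without overlap (8 in each direction for the difference from cDC2), and a few genes are not reported here. The genes, lists and comparisons were chosen with earlier results of these data known. Gene positions are from GENCODE on GRCm38, promoters are from RefSeq on GRCm38.p6, and motifs were searched on both strands.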

Additional observations from a re-analysis of the deposited data

Results flagged for a closer look

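In the immature group, the only one large enough for a test of single libraries, 303 named genes were examined, and for 21 of them 1 library lay farther from the other 3 than Dixon's 95% limit. Chance gives such a library in about 1 of 20 genes. Immature replicate 3 was the library apart for 10 genes and replicate 4 for 8. Immature replicate 1 was highest for Mmp12 at 92.1 counts (others 23.2 to 28.3). Immature replicate 2 was highest for Krt5 at 26.7 counts (others 20.3 to 21.2). Immature replicate 2 was lowest for Anxa3 at 52.5 counts (others 97 to 101). Immature replicate 3 was highest for 1700009J07Rik at 435 counts (others 356 to 369), Calr at 62708 counts (others 39294 to 43017), Ccnb2 at 1663 counts (others 1300.1 to 1359), Cd40 at 2494 counts (others 1709 to 1834), Rab19 at 462 counts (others 337 to 356) and Stmn1 at 3729 counts (others 2389 to 2440.3). Immature replicate 3 was lowest for Gclc at 1428 counts (others 1786 to 1796), Mcl1 at 10255 counts (others 11636 to 11838), Pola1 at 1100.1 counts (others 1345 to 1363) and Ptprc at 18461 counts (others 25165 to 25972). Immature replicate 4 was highest for Hist3h2a at 169.8 counts (others 34.3 to 49.8) and S1pr1 at 23.2 counts (others 0 to 1.69). Immature replicate 4 was lowest for Icam1 at 5065 counts (others 6107 to 6310.3), Itgb2 at 7899 counts (others 10282 to 10533), Kcnn4 at 539 counts (others 906 to 978), Rgs14 at 1205 counts (others 1614 to 1621), Rrp12 at 757 counts (others 874 to 885) and Stard5 at 245 counts (others 333 to 351).

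The maturation effect in cDC1 minus that in cDC2, on the log2 scale and tested as a contrast in limma, was called for 36 of the 43 genes with the largest changes or differences examined for it. It was above 1 for 16 of them, in descending order Gm16553 (7.46), Cd209c (7.26), Cd209b (7.06), Zbtb32 (6.73), Kcne3 (6.59), Rilpl1 (5.95), Osm (5.65), Il1rl1 (5.51), Thbs4 (3.88), Scube3 (3.59), D3Bwg0562e (3.39), Spata31d1b (3.22), Oprd1 (3.13), Dscaml1 (2.62), Ccl5 (2.61) and Il23r (2.30). It was below -1 for 20, beginning with Padi1 (-8.04), Cyp8b1 (-7.64), Asb2 (-6.91), P2rx7 (-6.84), Cxcr3 (-6.83), 1700009J07Rik (-6.29), Alpl (-6.23), Ppef2 (-5.16), Serpinb8 (-5.15), Serpinf1 (-4.62), Clec4b2 (-4.45), Tlr3 (-4.25), Gna15 (-4.15), Rgs18 (-3.57), Fcrla (-3.46), Naaa (-3.27), Ccdc69 (-3.03), Atp8b4 (-3.01), F2rl2 (-2.62) and Xcr1 (-2.09). The count of 36 of 43 was partly fixed in advance. Its genes with the largest differences, 8 in each direction, were taken from those already called, and most others for large changes in cDC1. Of 344 named genes, 95 had a called difference above 1 and 99 one below -1, against 5.25% and 8.34% of all genes tested. Those 344 include the genes chosen by size, so that their counts describe the choice of genes as well.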

How the results depend on the processing

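Over 22 alternatives, no gene called here was called in the opposite direction. The 3183 genes higher in mature cDC1 became 3079 to 3208 with 1 library left out and 2052 to 3422 otherwise, and the 3665 lower became 3452 to 3979 and 2254 to 3918. The lowest counts, 2052 and 2254, came from requiring at least 10 counts in all 7 libraries, which tests fewer genes (10581). The difference from cDC2 was above 1 for 738 to 875 genes with 1 library left out and 530 to 997 otherwise, against 786. It was below -1 for 1050 to 1867 with 1 library left out, the highest without mature replicate 3, against 1249, and for 740 with at least 10 counts in all 7 libraries and 612 with lane 8 alone, which leaves out the lane 5 libraries. The leading label number as a replicate block (correlation 0.155) gave 3202 higher and 3695 lower, and 862 and 1341 differences. Same-numbered libraries of different groups correlated unevenly, from -0.15 to 0.46. Mature replicate 1 correlated at -0.06 with immature replicate 3 and 0.12 with immature replicate 4, and thymic cDC1 and cDC2 libraries of 1 number at -0.15 to 0.28, so not every pair was over 0.1 and the libraries were not treated as pairs. Without mature replicate 3 the median of all genes was -0.107.

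Of 326 named genes called, 10 lost the call in any alternative: C1qa, Cd5 (-0.998 with the replicate block), Cr2 (0.77 with a pseudocount of 8), Cyba, Gpr183, H2-Aa, Irf7, Mcl1 (0.96 without mature replicate 3), Psmb10 (0.86 to 0.99) and Psme1. The direction turned, for genes not called, with 1 library left out: Cd209c ran from -1.06 without mature replicate 3 to 0.40 without immature replicate 2, Cst3 from -0.093 without mature replicate 3 to 0.34, Il1rl1 from -0.53 without mature replicate 3 to 0.91 and Prss16 from -1.11 to 0.33 without mature replicate 1. With at least 10 counts in all 7 libraries, which drops members, list medians turned for cDC2 genes (0.48), voltage-gated channels and neuronal genes (-1.07) and potassium channels (-1.02). The cause of the other changes was not tested. Genes that did not reach 10 counts in 3 samples were not tested.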

Other observations

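Members of further gene groups changed within the maturation of thymic cDC1, and most genes named for them were chosen after their values were seen. Of 12 RGS genes, which shorten G-protein signals, 5 rose and 4 fell: Rgs1 was the most abundant, at 20110.0, 23250.2, 23099 and 26916 counts in immature and 126673, 146635 and 143619 in mature libraries, while Rgs2 fell from 29898 ± 1472 to 5378 ± 1266 and Rgs14 from 1514 ± 206 to 49.3 ± 71.0. Rgs18 fell and Rgs4 (from 1.64 ± 1.99 to 26.2 ± 13.4) rose most on the log2 scale. Of 51 orphan and adhesion receptors named Gpr, 20 fell and 10 rose, and Gpr34, Gpr82 and Gpr18 fell by 6.88, 6.44 and 6.43 on the log2 scale, while Gpr126 rose from 87.8 ± 21.8 to 4182 ± 478. Of 19 tetraspanins, 8 fell and 5 rose, with Cd53, which is found on all leukocytes, falling from 6846 ± 975 to 114 ± 84.4 and Tspan3 rising from 490.4 ± 54.9 to 16776 ± 2969. The largest tetraspanin changes were those of Tspan9, which fell from 894 ± 138 to 16.7 ± 21.4, and Cd63. In the phagocyte NADPH oxidase, the organizer subunit gene Ncf1 rose by 1.596 and Cyba, of the membrane pair, by 1.13 (0.95 without immature replicate 4 or mature replicate 3), while Ncf4 fell by 3.32. Reads of Ncf1 can be shared with near copies of the gene.

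Of 39 mitogen-activated protein kinases and their activators, 9 rose and 10 fell, 23.1% and 25.6%, near the shares of all genes (21.3% and 24.5%). Mapk4 (from 0 to 16.6 ± 0.996) and Map3k6 (from 209.7 ± 37.7 to 6.53 ± 8.10) had the largest rise and fall. Mapk14, encoding p38 alpha, had 8246, 7706, 7321 and 6845 counts in immature and 623, 406 and 532 in mature libraries, and Map2k6, which activates it, fell from 439.7 ± 77.3 to 15.7 ± 17.3. Map3k14, encoding NIK, the kinase of the alternative NF-kB pathway, rose from 1294 ± 85.6 to 8289 ± 2661. Of 19 dual-specificity phosphatases, 6 rose and 6 fell, led by Dusp14 (from 2.998 ± 1.98 to 368.2 ± 92.2) and, downward, by Dusp23 and Dusp6, the latter from 268 ± 36.8 to 19.7 ± 20.2. Ptprc, encoding CD45, had 25165, 25972, 18461 and 25647 counts before and 10471, 8228 and 9691 after maturation, a fall of 1.32. Of 45 TRIM genes, 14 rose and 5 fell, Trim43b and Trim30b furthest. Of 74 mitochondrial ribosomal proteins, 21 fell and 4 rose, from Mrps28, which fell by 5.61, to Mrpl14, which rose by 2.21. These are 28.4% and 5.4%, near the share of all genes for falls and below it for rises. Of 14 aldehyde dehydrogenases, 6 fell and 2 rose, Aldh18a1, of proline synthesis, falling from 2461 ± 511 to 298 ± 119 and Aldh3b1, with the largest fall, from 589 ± 110.5 to 16.9 ± 16.6. Among noncoding genes, 58 of 221 lincRNAs rose and 54 fell, and 73 of 264 antisense genes rose and 61 fell. Both are shares of the same order as the 21.3% and 24.5% of all genes.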
